A study of Homo sapiens with 24 samples.

Results

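The genes of YAP1, WWTR1 (which encodes TAZ), TEAD1, TEAD2, TEAD3, and TEAD4 and of 4 genes that these factors are known to control, CCN1, CCN2, AMOTL2, and LATS2, were chosen by name, 10 of the 20098 protein-coding genes annotated on chromosomes 1 to 22 and X. Peaks of S100A8 and S100A9 binding were counted for each of them in the gene body or within 50 kb on either side (the locus). The data are Flag ChIP-seq peak lists from MCF-10A–ER-Src cells, a nontransformed human breast epithelial line that carries a v-Src oncoprotein fused to the ligand-binding domain of the estrogen receptor. All groups were lines of these cells with a stably introduced S100A8-Flag or S100A9-Flag protein, and they were kept for 24 hours in 1 μM 4-hydroxytamoxifen (TAM), which activates v-Src and transforms the cells, or in ethanol (EtOH) as the control. The lists comprise S100A8-Flag in EtOH (2 libraries), S100A8-Flag in TAM (3 libraries), S100A9-Flag in EtOH (3 libraries), and S100A9-Flag in TAM (3 libraries). The tagged proteins are made in addition to the endogenous ones, and no Flag ChIP of cells without a tagged protein was used here. The libraries of a group are labelled as biological replicates, without saying whether they came from separate cultures, and the p values measure the spread between these libraries.

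YAP and TAZ are coactivators without a DNA-binding domain of their own, and they reach DNA through the TEAD proteins, often at enhancers that AP-1 also occupies. The Hippo kinases LATS1 and LATS2 phosphorylate YAP and TAZ and keep them in the cytoplasm, and angiomotin proteins such as AMOTL2 hold them there as well. CCN1 and CCN2 encode secreted matricellular proteins that serve as standard readouts of YAP and TAZ activity, and AMOTL2 and LATS2 are both targets and inhibitors in a feedback loop. Breast epithelial cells of the MCF-10A lineage are widely used to study this pathway.

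A peak was counted where its q value was at most 1e-07 (−log10 q of at least 7). Each library then held from 1853 to 4609 peaks in EtOH and from 21518 to 40735 in TAM, so that every TAM list was longer than every EtOH list. No read numbers are given in the lists, and the depth of the libraries is unknown. Fewer peaks from a lower depth and fewer from weaker binding therefore cannot be told apart. Regions with such peaks in at least 2 replicates of a condition were called confident sites, and the confident sites of the 4 conditions were merged into 30322 union sites, of which 41 lay at the 10 loci.

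The following sequences (GRCh37, the same assembly as hg19) show DNA at or near the summits of some S100A8 and S100A9 sites. For CCN2 they show the promoter at which no confident site was found. All of those shown carry TEAD or AP-1 letters, whereas other sites at the loci carried neither. Capitals mark the consensus letters of TEAD (GGAATG, or its reverse complement) and of AP-1 (TGANTCA), and TSS stands for transcription start site. The longer sequences other than that of CCN2 have the summit at their center. The shorter ones are the bases around the TEAD letters at sites that lie on or beside an exon. Of the shorter ones, only that of LATS2 holds the summit.
YAP1, 29.4 kb from the nearest TSS, downstream (chr11:102127098-102127198, plus strand): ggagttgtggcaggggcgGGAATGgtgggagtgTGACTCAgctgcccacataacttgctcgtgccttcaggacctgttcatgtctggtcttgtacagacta
YAP1, 41.7 kb from the nearest TSS, downstream (chr11:102139321-102139421, plus strand): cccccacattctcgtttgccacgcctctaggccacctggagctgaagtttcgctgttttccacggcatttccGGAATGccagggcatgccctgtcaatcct
WWTR1, promoter of a shorter transcript (chr3:149294128-149294228, plus strand): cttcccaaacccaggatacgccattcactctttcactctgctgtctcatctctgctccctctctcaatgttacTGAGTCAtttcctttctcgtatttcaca
WWTR1, gene body (chr3:149266091-149266191, plus strand): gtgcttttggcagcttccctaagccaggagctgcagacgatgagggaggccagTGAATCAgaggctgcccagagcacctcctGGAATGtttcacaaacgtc
TEAD1, promoter (chr11:12695949-12695978, plus strand): tcatttCATTCCtgtcctCATTCCgaacat
TEAD2, promoter (chr19:49866939-49866968, plus strand): gggcgtggccagGGAATGaactcacggctc
TEAD4, promoter (chr12:3068852-3068952, plus strand): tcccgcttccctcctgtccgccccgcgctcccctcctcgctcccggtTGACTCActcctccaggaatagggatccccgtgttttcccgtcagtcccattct
TEAD4, 14.5 kb upstream (chr12:3053951-3054051, plus strand): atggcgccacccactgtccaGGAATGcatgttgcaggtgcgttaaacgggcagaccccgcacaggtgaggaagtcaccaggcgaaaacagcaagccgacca
CCN1, promoter (chr1:86046333-86046362, plus strand): gCATTCCtgagatgtttgagaattctggaa
AMOTL2, promoter (chr3:134093341-134093370, plus strand): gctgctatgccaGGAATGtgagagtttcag
AMOTL2, 39.0 kb from the nearest TSS, downstream (chr3:134046603-134046703, plus strand): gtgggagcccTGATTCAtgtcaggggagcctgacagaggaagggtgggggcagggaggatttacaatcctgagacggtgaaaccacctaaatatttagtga
LATS2, promoter (chr13:21635699-21635728, plus strand): ctacattgttggCATTCCacgggcgtcacg
CCN2, the 120 bases upstream of its TSS (chr6:132272513-132272632, minus strand): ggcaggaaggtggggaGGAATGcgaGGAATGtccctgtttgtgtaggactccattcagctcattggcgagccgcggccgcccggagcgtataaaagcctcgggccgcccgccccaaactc
In the first of these sequences the TEAD and AP-1 letters stood side by side, 32 and 17 bp before the summit. The TEAD1 promoter held the TEAD letters as a pair, 29 and 41 bp after the summit, and the LATS2 promoter held them 5 bp before it. The match of such letters describes the sequence and does not show that a factor was bound.

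S100A8 and S100A9 peaks were found at all 10 loci after TAM. Their mean number was higher than in EtOH at every locus, and the difference was called at 9 of them. The 10 loci together held from 2 to 9 peaks per library in EtOH and from 28 to 59 in TAM. By an exact permutation test of the libraries within each protein (200 arrangements, two-sided, smallest possible p of 0.01) with Benjamini-Hochberg adjustment over 18126 genes, 9 members had more peaks in TAM at an adjusted p under 0.05, all but CCN2. The same call was made for 67.6% of all genes tested, so that a rise in peak number was common and the share of members is to be read against it. The median of the difference was 1.56 over the members and 1.39 over all genes tested, on the scale of log2(peaks + 1). At 5 members the lowest TAM library lay above the highest EtOH library, and this held for 40.2% of the genes tested. When each list was shortened to its 1853 top peaks, the loci held from 0 to 5 peaks in EtOH and from 1 to 5 in TAM, and no member passed the adjusted test. No member had an unadjusted p under 0.05 in those lists either, among the 6 that could be tested, where 1.68% of all genes did.

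**Figure D1:**
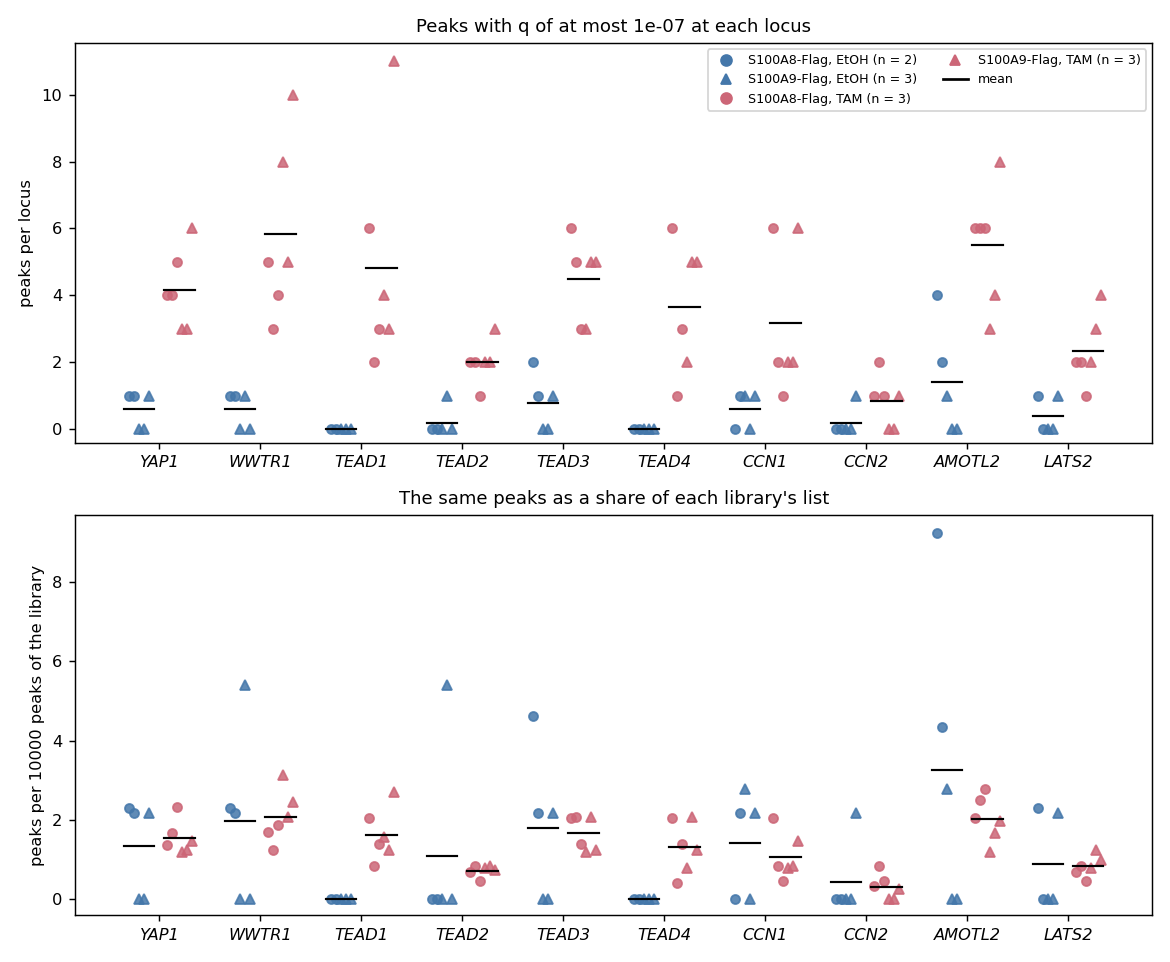
Peaks with q of at most 1e-07 at each of the 10 loci (upper panel, number of peaks) and the same peaks per 10000 peaks of the library (lower panel), with 1 point per library, colors for treatment, shapes for the tagged protein, and black bars for means. In numbers the TAM points lie above most EtOH points at every locus but CCN2, whereas in shares EtOH and TAM points overlap at all loci but TEAD1 and TEAD4, which had 0 peaks in every EtOH library.

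YAP1 (ENSG00000137693, chr11:101981178-102104155, plus strand) encodes the coactivator YAP. Its locus held 1 and 1 peaks in the S100A8 EtOH libraries, 0, 0, and 1 in the S100A9 EtOH libraries, 4, 4, and 5 in the S100A8 TAM libraries, and 3, 3, and 6 in the S100A9 TAM libraries. All TAM libraries were above all EtOH libraries, with means of 0.6 ± 0.548 (SD, n = 5) and 4.17 ± 1.17 (SD, n = 6). The difference was 1.67 on the log2 scale (adjusted p = 0.0219, exact permutation test with Benjamini-Hochberg adjustment). YAP1 had 4 union sites. The promoter summit lay 99 bp upstream of the TSS, with fold enrichments over input of 12.8 in S100A8 EtOH replicate 1, 7.58 in S100A9 EtOH replicate 3, 7.9 and 11.6 in S100A8 TAM replicates 1 and 2, and 12.2, 19.4, and 8.62 in the S100A9 TAM libraries. The merged site therefore had a call in both treatments, in 2 of 5 EtOH and 5 of 6 TAM libraries. The EtOH summits lay 26 bp upstream of the TSS in S100A8 replicate 1 and 480 bp upstream in S100A9 replicate 3. The S100A9 EtOH peak did not reach the summit at 99 bp. It overlapped the site because wide TAM peaks extended the site upstream. The second promoter site, 751 bp downstream of a TSS, was called in 1 EtOH and 3 TAM libraries.

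The YAP1 site 29.4 kb from the nearest TSS, downstream of the gene, was called in all 6 TAM libraries and in no EtOH library. Its fold enrichments were 9.52, 9.36, and 5.79 for S100A8 and 9.71, 14, and 11.4 for S100A9, and its summits in the 6 libraries lay within 46 bp of each other. In EtOH, a weaker peak (−log10 q of 5.44) was listed there in S100A9 replicate 1 alone. The neighboring site at 41.7 kb was called in 5 of 6 TAM libraries. It carried TEAD letters 22 bp after its summit, and 3 EtOH libraries listed weaker peaks there, with −log10 q between 3.93 and 6.09.

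WWTR1 (ENSG00000018408, chr3:149235022-149454501, minus strand) encodes TAZ, the paralog of YAP. Its peak numbers were 1 and 1 (S100A8 EtOH), 0, 1, and 0 (S100A9 EtOH), 5, 3, and 4 (S100A8 TAM), and 8, 5, and 10 (S100A9 TAM). The TAM libraries were all above the EtOH libraries, and the S100A9 TAM libraries reached the highest numbers. The difference was 2.02 on the log2 scale (adjusted p = 0.0219, exact permutation test with Benjamini-Hochberg adjustment), and 85.5% of all genes had a lower mean number in TAM. These numbers are not scaled to the length of the locus, which is 319 kb for WWTR1. The rise was 1.3 for S100A8 and 2.74 for S100A9, and the difference between the proteins, 1.44, was not called (p = 0.06, adjusted p = 1, exact permutation test of the protein labels within each treatment, Benjamini-Hochberg).

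WWTR1 had 3 promoter sites, all at the TSSs of shorter transcripts inside the gene, 160, 78.7, and 78.2 kb from its 5′ end. None of them was called in EtOH. The most often called was the site 139 bp upstream of an internal TSS, with fold enrichments of 8.08, 9.19, and 9.17 in the S100A8 TAM libraries and 12.2 and 7.81 in S100A9 TAM replicates 1 and 2. No EtOH library listed even a weaker peak there, although 4 EtOH libraries listed such peaks at the second promoter site, with −log10 q between 2.62 and 5.65. The most widely called site of the locus lay in the promoter of the neighboring gene COMMD2, 15.8 kb upstream of WWTR1, in 3 of 5 EtOH and all 6 TAM libraries. A further site was in the promoter of TM4SF4, on the other side of WWTR1, so that these peaks cannot be assigned to WWTR1 alone.

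The 4 TEAD genes encode the DNA-binding partners of YAP and TAZ. TEAD1 (ENSG00000187079, chr11:12695968-12966284, plus strand) and TEAD4 (ENSG00000197905, chr12:3068496-3149842, plus strand) had no peak in any of the 5 EtOH libraries. In TAM, TEAD1 held 6, 2, and 3 peaks for S100A8 and 4, 3, and 11 for S100A9, and TEAD4 held 6, 1, and 3 for S100A8 and 2, 5, and 5 for S100A9. These 2 genes were the only members whose share of the library's peaks separated the treatments, since all shares were 0 in EtOH. The differences were 2.38 for TEAD1 and 2.09 for TEAD4 on the log2 scale (adjusted p = 0.0219 for both, exact permutation test with Benjamini-Hochberg adjustment), the highest among the members. TEAD1 also has the longest locus of the 10, 370 kb.

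At the TEAD1 promoter, with the summit 42 bp upstream of the TSS, fold enrichments were 7.61 and 10.3 in S100A8 TAM replicates 2 and 3 and 7.86, 16.8, and 12.7 in the S100A9 TAM libraries. Weaker peaks of −log10 q 5.31, 4.33, and 2.24 were listed in S100A8 EtOH replicates 1 and 2 and S100A9 EtOH replicate 3. The absence of TEAD1 peaks in EtOH thus holds for q of at most 1e-07 and not for the lists as deposited. TEAD1 had 4 further sites, all in the gene body, which were called in 4, 2, 3, and 2 TAM libraries.

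The main TEAD4 promoter site, 60 bp upstream of a TSS, was called in 5 of 6 TAM libraries, with fold enrichments of 11 and 9.09 for S100A8 and 13.9, 6.94, and 11.6 for S100A9. It carried AP-1 letters 3 bp before its summit. No EtOH library listed a peak of any strength that overlapped it. The distal TEAD4 site, 14.5 kb upstream, was called in the 3 S100A9 TAM libraries (10.5, 8.99, and 6.0 fold) and was not listed in any other library.

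TEAD2 (ENSG00000074219, chr19:49843852-49865714, minus strand) held 0 and 0 (S100A8 EtOH), 0, 1, and 0 (S100A9 EtOH), 2, 2, and 1 (S100A8 TAM), and 2, 2, and 3 (S100A9 TAM) peaks. The groups met at 1 peak, and the difference was 1.39 on the log2 scale (adjusted p = 0.0219, exact permutation test with Benjamini-Hochberg adjustment). Its main promoter site, 1.31 kb upstream of the TSS, was called in all 6 TAM libraries and in S100A9 EtOH replicate 2, and fold enrichments were 5.3, 7.52, and 7.42 for S100A8 and 13, 13.1, and 11.3 for S100A9 in TAM. This site also lies in the promoter of DKKL1, the divergent neighbor of TEAD2, and its summit is in an untranslated region of DKKL1. The second promoter site, 152 bp upstream of a TSS, was called in S100A9 TAM replicates 2 and 3 alone (6.65 and 8.52 fold). It lies in the promoter of DKKL1 as well, so that neither site can be assigned to TEAD2 alone.

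TEAD3 (ENSG00000007866, chr6:35441374-35464856, minus strand) was the TEAD gene without a confident promoter site. Its locus held 2 and 1 (S100A8 EtOH), 0, 0, and 1 (S100A9 EtOH), 6, 5, and 3 (S100A8 TAM), and 3, 5, and 5 (S100A9 TAM) peaks, with all TAM libraries above all EtOH libraries and a difference of 1.61 on the log2 scale (adjusted p = 0.0219, exact permutation test with Benjamini-Hochberg adjustment). At the TEAD3 promoter itself the best peaks had −log10 q between 3.08 and 5.69 in 5 TAM libraries and 3.38 in 1 EtOH library. The peaks of its locus were elsewhere. Sites in the promoters of FANCE and RPL10A, 2 genes downstream of TEAD3, were called in 6 and 4 TAM libraries, respectively. An intronic TEAD3 site, 10.6 kb downstream of the nearest TSS, was the only 1 of the 41 sites with a larger share of calls in EtOH than in TAM. It had fold enrichments of 8.79, 7.8, and 8.7 in 3 of 5 EtOH libraries and of 8.87 and 9.8 in 2 of 6 TAM libraries. The other 4 TAM libraries listed it with −log10 q between 4.15 and 6.74. Among all union sites, 0.824% had a larger share of calls in EtOH than in TAM.

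**Figure D2:**
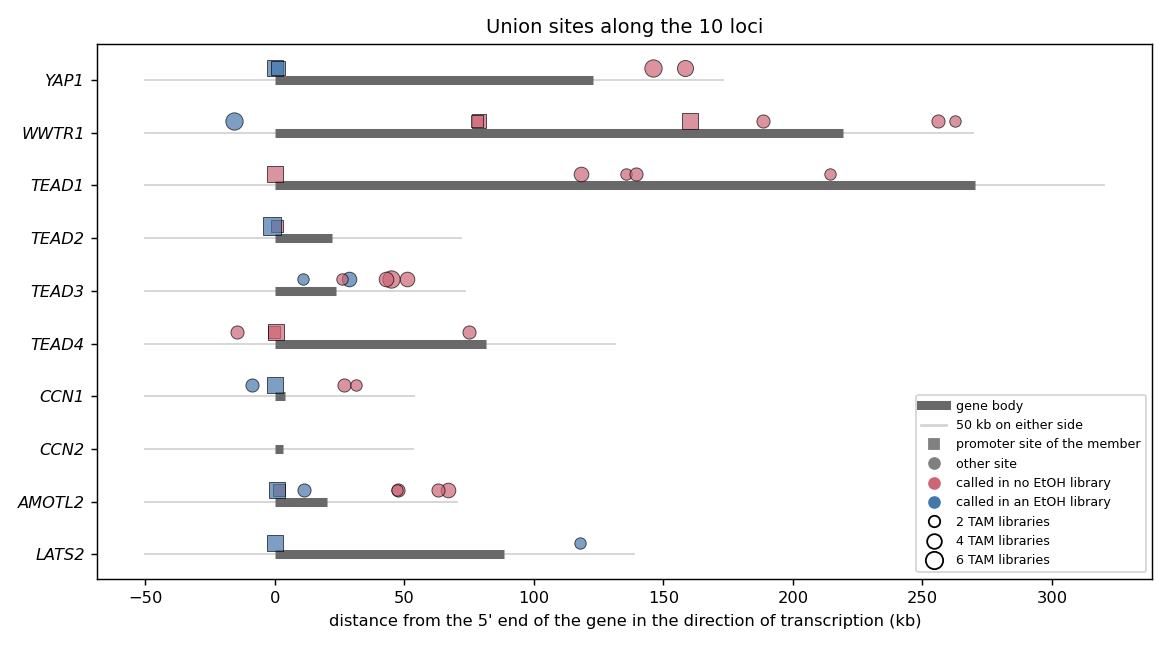
Union sites along the 10 loci, placed by their distance in kb from the 5′ end of the gene, with thick bars for gene bodies, squares for promoter sites of the member, circles for other sites, size for the number of TAM libraries with a call, and blue for sites called in at least 1 EtOH library. Of the 41 sites, 12 are blue, and CCN2 has none of either color.

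CCN1 (ENSG00000142871, chr1:86046444-86050272, plus strand), a secreted integrin ligand, held 0 and 1 (S100A8 EtOH), 1, 0, and 1 (S100A9 EtOH), 6, 2, and 1 (S100A8 TAM), and 2, 2, and 6 (S100A9 TAM) peaks. The groups met at 1 peak, and the number varied among the replicates of TAM, with a mean of 3.17 ± 2.23 (SD, n = 6). The difference was 1.31 on the log2 scale (adjusted p = 0.0352, exact permutation test with Benjamini-Hochberg adjustment). This call was lost in 9 of the 11 fits that left out 1 library (adjusted p between 0.0531 and 0.0758, same test). The promoter site was called in 5 of 6 TAM libraries (8.18, 11, and 6.61 fold for S100A8, 11.2 and 9.88 for S100A9) and in S100A9 EtOH replicate 3 (7.73 fold). It was a merged region of 1160 bp, whose summit, 11 bp upstream of the TSS, came from S100A8 TAM replicate 2 (11 fold). The other peaks with these folds had summits from 594 to 643 bp downstream of the 5′ end of the gene. S100A8 TAM replicate 1 had a further peak 50 bp upstream of it (6.78 fold). The TEAD letters of the site began 99 bp before its summit. A site 8.77 kb upstream, in the body of the neighboring gene DDAH1, was called in S100A8 EtOH replicate 2 and in 3 TAM libraries, and sites 25.8 and 30.7 kb from the nearest TSS, both with TEAD letters, were called only in TAM.

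CCN2 (ENSG00000118523, chr6:132269316-132272512, minus strand), often the first gene measured for YAP and TAZ activity, differed from CCN1. Its locus held 0 and 0 (S100A8 EtOH), 0, 0, and 1 (S100A9 EtOH), 1, 2, and 1 (S100A8 TAM), and 0, 0, and 1 (S100A9 TAM) peaks, and the difference of 0.60 on the log2 scale was not called (p = 0.16, adjusted p = 0.183, exact permutation test with Benjamini-Hochberg adjustment). The treatments overlapped, and only 17.3% of all genes had a lower mean number in TAM. These numbers are not scaled to the length of the locus, which is 103 kb for CCN2. None of the 6 peaks fell into a union site. Of these peaks, 3 lay close together in the gene, 719, 682, and 699 bp from the TSS, in S100A8 TAM replicate 1, S100A9 EtOH replicate 3, and S100A9 TAM replicate 3, with fold enrichments of 7.54, 9.86, and 6.63. They did not form a confident site because each came from another condition. The CCN2 promoter carried TEAD letters that began 104 and 95 bp upstream of the TSS. Peaks below the threshold were listed in that promoter in 2 EtOH libraries (−log10 q of 6.85 and 5.09) and in 4 TAM libraries (6.13, 1.43, 2.57, and 5.73), and the values of the treatments overlapped.

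AMOTL2 (ENSG00000114019, chr3:134074189-134094321, minus strand), the angiomotin family member that binds YAP, was the member with the most peaks in EtOH. It held 4 and 2 (S100A8 EtOH), 1, 0, and 0 (S100A9 EtOH), 6, 6, and 6 (S100A8 TAM), and 3, 4, and 8 (S100A9 TAM) peaks. The number was higher in TAM by 1.51 on the log2 scale (adjusted p = 0.0219, exact permutation test with Benjamini-Hochberg adjustment), although S100A8 EtOH replicate 1 lay above 1 TAM library. Relative to the length of the lists, the locus took 9.24 and 4.34 peaks per 10000 in the S100A8 EtOH libraries, 2.78, 0, and 0 in the S100A9 EtOH libraries, and from 1.18 to 2.79 in TAM. The difference of −1.84 was not called (p = 0.28, adjusted p = 0.592, exact permutation test with Benjamini-Hochberg adjustment). It was −4.35 for S100A8 and 0.68 for S100A9, and −0.61 and −3.06 over both proteins without S100A8 EtOH replicates 1 and 2, respectively. Its main promoter site, in an exon 24 bp downstream of an internal TSS, was called in 8 libraries. Fold enrichments were 10.4 and 11 for S100A8 and 7.78 for S100A9 in EtOH, and 9.71 and 5.91 for S100A8 and 8.88, 8.92, and 9.73 for S100A9 in TAM. The remaining 3 libraries listed weaker peaks there. A second promoter site, 36 bp downstream of another TSS, was called in S100A8 TAM replicates 2 and 3 and was the only 1 of the 41 sites called for S100A8 alone. The AMOTL2 site 39.0 kb from the nearest TSS reached 18.8 fold in S100A8 TAM replicate 3, beside 7.39 in replicate 2 and 8.68 in S100A9 TAM replicate 3.

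LATS2 (ENSG00000150457, chr13:21547175-21635725, minus strand), the kinase that phosphorylates YAP and TAZ, held 1 and 0 (S100A8 EtOH), 0, 0, and 1 (S100A9 EtOH), 2, 2, and 1 (S100A8 TAM), and 2, 3, and 4 (S100A9 TAM) peaks. The groups met at 1 peak, and the difference was 1.26 on the log2 scale (adjusted p = 0.0352, exact permutation test with Benjamini-Hochberg adjustment). As with CCN1, leaving out 1 library ended this call in 9 of 11 fits (adjusted p between 0.0531 and 0.075, same test). Its promoter site, 9 bp downstream of the TSS in an untranslated region, was called in 5 of 6 TAM libraries, with 8.67, 13.3, and 8.97 fold for S100A8 and 7.23 and 7.49 for S100A9, and in S100A8 EtOH replicate 1, with 7.04 fold. The only distal site, 79.4 kb from the nearest TSS and beyond the 3′ end, carried CTCF letters 29 bp after the summit and was called in S100A9 libraries alone, in EtOH replicate 3 (10.3 fold) and TAM replicates 1 and 2 (8.46 and 8.11 fold).

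**Figure D3:**
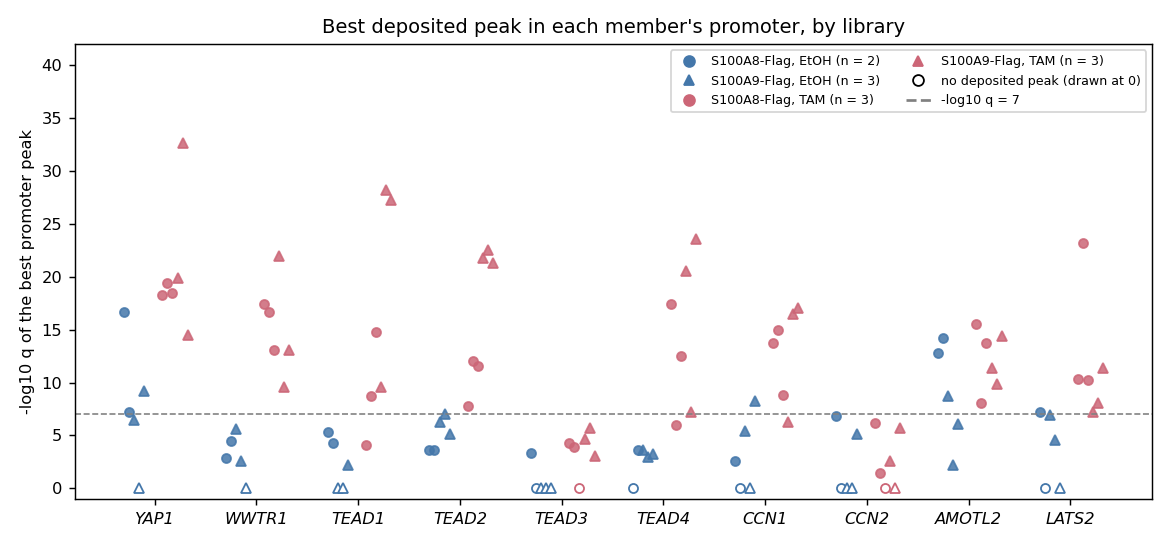
The −log10 q of the best deposited peak in the promoter (1500 bp upstream to 250 bp downstream of any TSS) of each member, with 1 point per library, open points at 0 for libraries without a listed peak, and a dashed line at 7. TAM points of 8 members lie mostly above the line, those of TEAD3 and CCN2 all lie below it, and EtOH points cross it at YAP1, TEAD2, CCN1, AMOTL2, and LATS2.

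Promoter binding was thus shared by most members after TAM. A confident promoter site was present in TAM at 8 of the 10 members, all but TEAD3 and CCN2, where 48.5% of all protein-coding genes had such a site. A site counted at any annotated TSS, and genes with more TSSs offer more places for one. CCN2 has 1 annotated TSS and TEAD3 has 3, and the members with a site have from 2 (LATS2) to 12 (AMOTL2). In EtOH, AMOTL2 alone had a confident promoter site, and 7.79% of all genes had one. Leaving out either S100A8 EtOH library took this site away, and it then stood at 0 members. Promoter peaks with q up to 0.05 were nevertheless listed in EtOH for every member, in between 1 and 5 of the 5 libraries. For the YAP1 promoter the median −log10 q was 8.21 over the 4 EtOH libraries with a peak and 18.9 over the 6 TAM libraries. The corresponding medians were 3.70 and 14.9 for WWTR1, 3.41 and 14.9 for TEAD4, 8.75 and 12.6 for AMOTL2, and 5.97 and 4.15 for CCN2. The TAM median was the higher one for 9 members and the lower one for CCN2, without a share over all genes to set beside this. Libraries without a listed peak are left out of the medians. TEAD3 thus had 1 EtOH and 5 TAM values, and CCN2 had 2 and 4. The best peak was taken at any TSS, so that EtOH and TAM values can come from different sites. No EtOH library listed a peak at the main TEAD4 promoter site or the most often called WWTR1 promoter site. These q values depend on the depth of each library, which is unknown, and they were not tested between treatments.

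Over all 41 union sites at the 9 members that had any, 14 lay in a promoter of the member, 4 only in the promoter of a neighboring gene, and 23 were distal, of which 8 were in the gene body, 2 upstream, and 13 downstream. Confident sites numbered 3 in EtOH and 40 in TAM, and 25 in TAM without S100A9 TAM replicate 3, the library with the most peaks at the loci. The EtOH number fell to 0 without either S100A8 EtOH library, since a confident site needs 2 replicates and this group has 2. The 3 EtOH sites were those at the COMMD2 promoter, in the TEAD3 intron, and at the AMOTL2 promoter, and all were from S100A8. All 6 TAM libraries called 4 of the 41 sites, at YAP1, at TEAD2, and in the COMMD2 and FANCE promoters, whereas 14.3% of all union sites were called that often. A total of 29 of the 41 sites had no call in EtOH, as did 68.9% of all union sites. At 16 of these 29 sites a weaker peak was listed in at least 1 EtOH library, compared with 49.7% of all such sites. With weaker peaks included, 28 of the 41 sites had a peak in EtOH, compared with 65.3% of all union sites. The summits of the 21 sites called in at least 4 libraries spread over a median of 97 bp. A further 78 of the 245 peaks at the loci lay outside any union site, among them the 6 at CCN2.

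**Figure D4:**
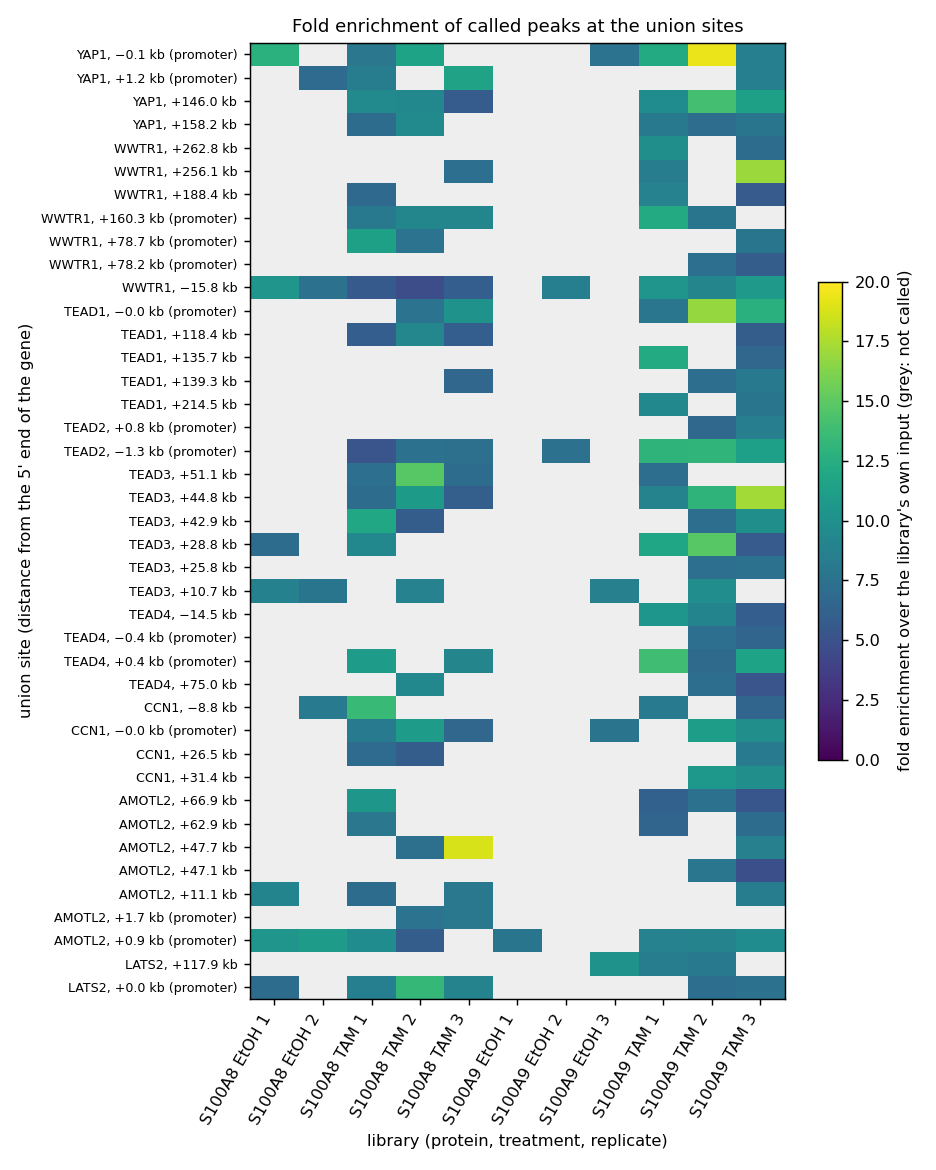
Fold enrichment of the called peaks at the 41 union sites (rows, named by the member and the distance from its 5′ end) in the 11 libraries (columns), with grey where no peak with q of at most 1e-07 was called. The 5 EtOH columns are mostly grey, and the S100A9 TAM replicate 3 column has the most calls, beside its 59 peaks at the loci.

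The share of each library's peaks that fell at the loci was also compared, to set the members against the length of the lists. The 10 loci took from 5.56 to 20.8 peaks per 10000 in EtOH and from 11.4 to 15.0 in TAM, so that the EtOH libraries lay on both sides of the TAM libraries. No member passed the exact permutation test with Benjamini-Hochberg adjustment, and neither did any gene (0% of the genes tested). At an unadjusted p under 0.05 there were 2 members, TEAD1 (1.63 peaks per 10000 higher in TAM) and TEAD4 (1.32 higher), each with p = 0.01 and adjusted p = 0.0831 by the permutation test, and 22% of all genes. With every deposited peak the differences were 0.22 for TEAD1 (adjusted p = 0.824) and 0.63 for TEAD4 (adjusted p = 0.319, exact permutation test with Benjamini-Hochberg adjustment). The mean share was lower in TAM for 6 members, and the median difference was −0.08 over the members and 0.10 over all genes tested. With so few EtOH peaks per locus, 1 peak changes an EtOH share by over 2 per 10000, as the 5.4 of TEAD2 from a single peak in S100A9 EtOH replicate 2 shows.

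No difference between S100A8 and S100A9 was called at these loci. No member differed in peak number between the proteins by the exact permutation test with Benjamini-Hochberg adjustment, and neither did any gene (0% of the genes tested). AMOTL2 alone had an unadjusted p under 0.05, with fewer peaks for S100A9 (−0.97 on the log2 scale, p = 0.04, permutation test), compared with 0.811% of all genes. In shares, AMOTL2 (−3.35 per 10000, p = 0.01) and YAP1 (−1, p = 0.04) passed the unadjusted permutation test, as did 2.39% of all genes, and neither was called after adjustment. Both proteins were called at 29 of the 41 sites, S100A9 alone at 11, and S100A8 alone at 1. Over all union sites 15.6% were called for S100A9 alone and 5.44% for S100A8 alone, and S100A9 had 6 libraries to the 5 of S100A8.

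The consensus letters of TEAD were more frequent at the members' sites than at union sites in general. Within 100 bp of the summit, GGAATG was present on either strand at 7 of the 14 promoter sites (50%), compared with 8.71% of all 10400 promoter sites, and at 8 of the 23 distal sites (34.8%), compared with 15.7% of all 19922 distal sites. The 7 promoter sites belonged to 7 of the 8 members with a promoter site, all but WWTR1. For TEAD4 the letters were not at its main promoter site. They were at a site 399 bp upstream of the TSS that was called in 2 S100A9 TAM libraries alone. For CCN1 they were counted from a summit that came from S100A8 TAM replicate 2. Within 50 bp the letters were at 3 promoter sites (21.4%, compared with 4.43%), those of TEAD1, AMOTL2, and LATS2. Sites of the same locus are not independent, and these shares were not tested. The members include known targets of YAP, TAZ, and TEAD. RefSeq promoter sequences of 300 bases were matched for 7 members. Of these, 3 carried the TEAD letters (YAP1, LATS2, and CCN2), compared with 11.6% of all RefSeq promoters, and CCN2 had no confident site. Whether the higher frequency belongs to the sites or to the promoters of these genes was not tested. AP-1 letters (TGANTCA) were at 8 distal sites (34.8%, compared with 41.8%) and at 2 promoter sites (14.3%, compared with 9.98%). TEAD and AP-1 letters occurred together at 3 distal sites (13%, compared with 6.98%), at YAP1, WWTR1, and LATS2. The ETS letters (CGGAAG) were at none of the 14 promoter sites, whereas 25.4% of all promoter sites carried them, and KLF/SP1 letters (CCCCGCCC) were at 2 (14.3%, compared with 23.1%). CREB letters (TGACGTCA) were at 2 promoter sites, of TEAD1 and AMOTL2 (14.3%, compared with 2.49%), the CArG box at 1, and CTCF letters at 3 distal sites (13%, compared with 13.1%).

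**Figure D5:**
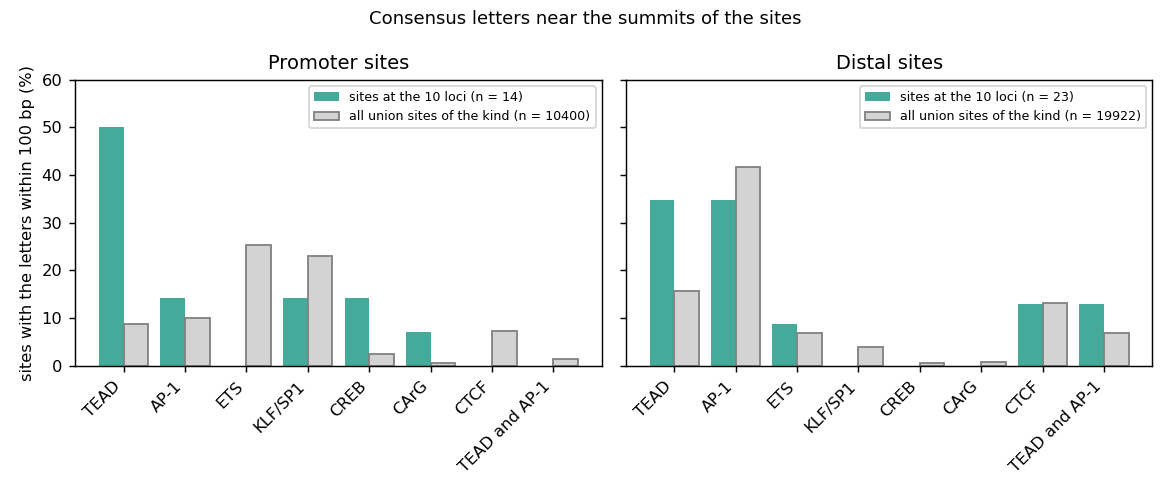
Percentage of promoter sites (left) and distal sites (right) with the consensus letters of each factor within 100 bp of the summit on either strand, for sites at the 10 loci (green) and for all union sites of the same kind (grey). The green TEAD bars stand at 50% and 34.8%, and the grey ones at 8.71% and 15.7%.

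The other genes of the pathway were examined from 2 lists. Of 23 upstream Hippo components and cofactors, such as the kinases STK3 and STK4, the scaffold NF2, and the TEAD-binding VGLL proteins, 22 could be tested and 19 had more peaks in TAM at an adjusted p under 0.05 (exact permutation test with Benjamini-Hochberg adjustment), with a median difference of 1.88 on the log2 scale. A confident promoter site was present at 19 of the 23 in TAM and at 4 in EtOH, LATS1, WWC1, TAOK3, and PTPN14, which are named after their values were seen. PTPN14, a phosphatase that binds YAP, had 14 TAM sites and a mean of 12 peaks in TAM, above every member, and 2 in EtOH. WWC1 (KIBRA) had 9 TAM sites and VGLL4, which competes with YAP for TEAD, had 7. AMOT had no peak in any library. Of 17 other YAP and TAZ target genes, 13 were called higher in TAM, 12 had a confident promoter site in TAM and 1, AXL, in EtOH, and the median difference was 1.77. NUAK2, a kinase induced by YAP, had 15 TAM sites, ASAP1 had 10, and 3 genes had 8 each, AXL, MYOF, and ARHGEF17. These counts are to be read against all genes. Of the genes tested, 67.6% were called higher in TAM, with a median difference of 1.39 on the log2 scale. A confident promoter site was present at 48.5% of all protein-coding genes in TAM and at 7.79% in EtOH. The numbers of sites and peaks are not scaled to the length of each locus.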

How the data were processed

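Flag ChIP-seq peak lists of 11 libraries were used, and the inputs and Pol II libraries were not analysed here. Per the methods, the authors mapped the reads with Bowtie2 (hg19), retained those with a unique position, and called peaks with MACS2 against the matching chromatin input. One narrowPeak list per library was deposited. The versions are not given in the sources used here. The deposited fold enrichment is the ratio of the signal at the summit to that input, and the deposited −log10 q is the value that the authors' MACS2 gave the peak, down to q = 0.05. The deposited score column was not used.

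Peaks with q of at most 1e-07 on chromosomes 1 to 22 and X were counted by summit in each gene body and 50 kb on either side (GENCODE 44 lifted to GRCh37). Every peak lay within the GRCh37 chromosome lengths. Promoters ran from 1500 bp upstream to 250 bp downstream of any annotated TSS. Peaks that overlapped by at least 1 bp were merged. A site took its summit from the peak that ranked highest by fold enrichment within its own library. Since the lists hold peaks and not reads, read-based differential binding, as in the paper's methods, could not be run. Genes with a peak in at least 2 libraries were tested by exact permutation on log2(peaks + 1) or on peaks per 10000, two-sided by doubling the smaller tail, with treatment permuted within protein or protein within treatment, and with Benjamini-Hochberg adjustment over all genes tested. Consensus letters were matched on both strands without mismatches.

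The members and gene lists were chosen with earlier results of these data known. All 10 members were to be named, with their promoter sites and the distal site called in the most libraries, and from each list at most 3 genes with the most TAM sites and those without a peak, and other sites described here were picked after their values were seen. The alternatives were every deposited peak, a stricter q value, lists of equal length, other distances and gene filters, another pseudocount, other definitions of a confident site and of a TSS, the replicate number as a block, and the omission of each library. Python 3.11.15, NumPy 2.4.6, pandas 2.3.3, SciPy 1.17.1, and matplotlib 3.10.9 were used.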

Additional observations from a re-analysis of the deposited data

How the results depend on the processing

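For the members' log2 differences in peak number, 53 values under the alternatives other than the omission of a library kept direction and call, 30 lost the call, 1 gained it, and 2 changed sign. Members called higher in TAM were 9 as reported (67.6% of all genes), 10 with every deposited peak (72.1%), and 7 at q of at most 1e-10 (40.7%), but 3 with peaks within 10 kb of the gene body (23%), 0 with the gene body only (0%), and 0 in lists of equal length (0%). At an unadjusted permutation p under 0.05 there were 5 members within 10 kb (50.2% of all genes) and 5 in the gene body (33.7%). In lists of equal length the log2 difference of AMOTL2 became −0.63, and with the gene body only that of TEAD3 became −0.17. With the replicate block, that is, with libraries of the same number paired, 0 members and 0% of all genes were called, and the smallest p that its 32 arrangements allow is 0.0625. The deviations of same-numbered EtOH and TAM libraries correlated between −0.0222 and 0.0107 over 5 pairs, and 2 of 10 libraries correlated best with their own number. These values cannot decide whether libraries of the same number belong together. The pairs are few, and the 2 S100A8 EtOH libraries deviate from their mean as mirror images.

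Confident sites at the loci in EtOH and TAM numbered 25 and 90 with every deposited peak, 1 and 23 at q of at most 1e-10, and 1 and 0 in lists of equal length. They numbered 18 in EtOH and 98 in TAM when 1 replicate was enough. The TAM number was 17 when every replicate was required, 24 within 10 kb, and 16 in the gene body. Members with a promoter site in EtOH were 8 with every deposited peak (34.5% of all genes), 5 when 1 replicate was enough (30.4%), and 0 with the 5′ end of the gene as the TSS (5.5%). In TAM they were 6 with the 5′ end as the TSS (35.8%) and 0 in lists of equal length (4.9%). The omission of each library gave from 7 to 9 members called (from 46.4 to 53% of all genes), from 0 to 3 sites in EtOH, from 25 to 40 in TAM, and from 0 to 1 promoters in EtOH.

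Differences in share, none of which was called, changed sign most often. With every deposited peak they became −0.02 (WWTR1), 0.14 (CCN2), and 0.50 (LATS2), and at q of at most 1e-10 they became 0.74 (TEAD2), 2.11 (TEAD3), and 0.82 (CCN1). TEAD3 became 1.35 in lists of equal length. Within 10 kb, YAP1 became −0.69 and LATS2 0.08, and in the gene body YAP1 −0.13, TEAD2 0.11, and LATS2 0.45. With the replicate block YAP1 became −0.08. Over the omission of each library the shares ran from −0.12 to 0.42 for YAP1, −0.39 to 0.96 for WWTR1, −0.63 to 0.72 for TEAD2, −1.01 to 0.22 for TEAD3, −0.84 to 0.24 for CCN1, −0.23 to 0.31 for CCN2, and −0.69 to 0.47 for LATS2. The causes were not tested. The depth of the libraries is unknown and limits every number above.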
